A study of Mus musculus with 28 samples.

Results

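Of 13418 promoter regions that carried H3K27 acetylation in both control replicates, 811 overlapped no acetylated region in either replicate after *Brg1* deletion, and these lost regions are described here. They were chosen by measured values in 4 steps: the regions of the 2 control H3K27ac lists that shared at least 1 bp were merged, the 27332 found in both lists were retained, those with their nearest edge within 2.5 kb of an annotated transcription start site (TSS) were called promoter regions, and those untouched by both 4-OHT lists were called lost. The other 12607 promoter regions are called kept. All 4 H3K27ac libraries thus took part in the choice, so their values at lost and kept regions describe the members and carry no test. Position entered through the limit of 2.5 kb to a TSS, which lost and kept promoter regions share and distal regions do not. FLAG, H3K27me3, Suz12 and DNA sequence did not enter the choice.

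The cultures were mouse embryonic stem (ES) cells of the line *Brg1*f/f; *Actin-CreER*, in which both *Brg1* alleles are flanked by loxP sites and a ubiquitous actin promoter drives a tamoxifen-dependent Cre recombinase. Embryoid bodies were reaggregated on day 2 for 40 h with VEGF, activin A and BMP4 and collected on day 4; from day 2 they received 200 nM 4-hydroxytamoxifen (4-OHT) in tetrahydrofuran (THF), which deletes *Brg1*, or THF alone, the control. ChIP-seq gave 2 control and 2 4-OHT replicates for H3K27ac, 3 and 3 for H3K27me3, 2 and 2 for Suz12, and 3 FLAG replicates of cells with normal *Brg1*, for which the labels name the same line but the study's methods an ES line with a FLAG-tagged *Brg1* allele. Each is 1 cell line, and in bulk chromatin fewer cells with a mark and less of the mark per cell cannot be told apart.

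Acetylation of lysine 27 of histone H3 marks active promoters and enhancers, and the same lysine, when trimethylated by the Polycomb complex PRC2, of which Suz12 is a core subunit, marks silent developmental genes. Brg1 (gene symbol *Smarca4*) is the ATPase of BAF complexes, which use ATP to move or evict nucleosomes. Promoters of mammalian housekeeping genes mostly lie in CpG islands, stretches rich in the CG dinucleotide, whereas tissue-restricted promoters are more often poor in it.

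The central 300 bases of 8 lost regions are shown first, because the lost regions differed widely in their content of the dinucleotide CG, which is compared with that of the kept regions after the genes. Letters are those of the + strand of mm9, 5′ to 3′, with each CG in capitals. *Gna14* (G protein alpha subunit) was the widest lost region, *Sema6c* a transmembrane semaphorin, *Mogat2* (monoacylglycerol acyltransferase) the widest lost region with regions of 2 FLAG replicates, *Wnt2b* a Wnt ligand, *Cxcr4* the CXCL12 receptor with a lost region on each side of its TSS, *Lfng* a modifier of Notch receptors and *Epha4* an ephrin receptor.
Gna14 chr19:16512888-16513187: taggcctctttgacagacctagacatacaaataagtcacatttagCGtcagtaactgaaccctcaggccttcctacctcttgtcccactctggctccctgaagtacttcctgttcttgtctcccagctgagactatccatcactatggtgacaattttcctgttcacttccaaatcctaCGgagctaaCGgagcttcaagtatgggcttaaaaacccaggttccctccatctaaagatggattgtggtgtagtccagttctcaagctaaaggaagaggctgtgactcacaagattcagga
Sema6c chr3:94965888-94966187: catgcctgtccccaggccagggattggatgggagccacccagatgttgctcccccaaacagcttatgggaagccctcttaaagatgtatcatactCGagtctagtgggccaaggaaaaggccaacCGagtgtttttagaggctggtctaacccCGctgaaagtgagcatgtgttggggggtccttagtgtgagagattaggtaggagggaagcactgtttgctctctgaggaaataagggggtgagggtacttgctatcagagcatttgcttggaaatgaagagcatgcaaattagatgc
Mogat2 chr7:106385713-106386012: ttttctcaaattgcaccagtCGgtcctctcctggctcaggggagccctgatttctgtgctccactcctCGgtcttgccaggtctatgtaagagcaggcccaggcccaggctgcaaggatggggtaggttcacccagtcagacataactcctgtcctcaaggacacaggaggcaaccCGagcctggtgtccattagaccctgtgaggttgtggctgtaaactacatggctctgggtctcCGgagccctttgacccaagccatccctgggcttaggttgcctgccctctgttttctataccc
Wnt2b chr3:104765563-104765862: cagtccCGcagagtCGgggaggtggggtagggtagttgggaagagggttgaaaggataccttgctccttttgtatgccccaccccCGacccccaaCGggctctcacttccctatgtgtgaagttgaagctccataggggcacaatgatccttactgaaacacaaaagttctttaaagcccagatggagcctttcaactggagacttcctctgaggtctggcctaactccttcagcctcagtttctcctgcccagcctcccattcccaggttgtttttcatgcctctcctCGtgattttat
Cxcr4 upstream chr1:130489301-130489600: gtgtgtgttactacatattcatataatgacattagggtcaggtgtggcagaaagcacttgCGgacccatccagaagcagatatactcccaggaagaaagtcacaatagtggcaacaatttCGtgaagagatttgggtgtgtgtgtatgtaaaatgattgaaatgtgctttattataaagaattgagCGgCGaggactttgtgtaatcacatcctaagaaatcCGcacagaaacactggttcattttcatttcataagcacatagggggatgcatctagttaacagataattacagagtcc
Cxcr4 downstream chr1:130488226-130488525: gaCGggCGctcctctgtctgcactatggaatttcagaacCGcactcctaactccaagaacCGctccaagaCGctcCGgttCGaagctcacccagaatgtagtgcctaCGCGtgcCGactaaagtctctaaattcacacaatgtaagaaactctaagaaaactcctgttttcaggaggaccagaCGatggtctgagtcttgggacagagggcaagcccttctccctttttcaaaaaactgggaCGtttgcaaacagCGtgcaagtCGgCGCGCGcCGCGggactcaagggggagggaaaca
Lfng chr5:141082763-141083062: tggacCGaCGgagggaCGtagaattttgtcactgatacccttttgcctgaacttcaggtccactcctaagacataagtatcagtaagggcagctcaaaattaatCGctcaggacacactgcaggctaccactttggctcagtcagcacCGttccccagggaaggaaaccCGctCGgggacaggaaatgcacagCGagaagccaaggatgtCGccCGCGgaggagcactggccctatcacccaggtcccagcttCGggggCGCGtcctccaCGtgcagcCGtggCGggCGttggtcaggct
Epha4 chr1:77511113-77511412: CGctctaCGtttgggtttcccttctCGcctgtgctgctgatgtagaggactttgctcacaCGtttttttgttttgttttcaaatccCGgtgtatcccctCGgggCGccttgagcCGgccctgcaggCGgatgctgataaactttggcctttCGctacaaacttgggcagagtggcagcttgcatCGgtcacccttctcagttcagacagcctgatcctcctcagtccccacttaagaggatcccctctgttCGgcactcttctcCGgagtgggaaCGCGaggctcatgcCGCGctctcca

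The first 4 of these windows hold 3 to 5 CGs each, with an observed/expected CG ratio of 0.16 to 0.25, whereas the *Cxcr4* window downstream of the TSS holds 19 (ratio 0.90), that of *Lfng* 18 (0.71) and that of *Epha4* 17 (0.73). The ratio divides the number of CGs by the number expected from the C and G content alone. The upstream *Cxcr4* window, with 5 CGs and a ratio of 0.44, lies between these groups. Windows rich in CG are over-represented here, since only 7.03% of lost regions had a ratio of at least 0.6 in their central 500 bp. None of the 8 windows overlaps an annotated UTR; those of *Gna14*, *Sema6c*, *Mogat2*, downstream *Cxcr4* and *Epha4* belong to regions centred in introns and the other 3 to regions centred between genes.

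The lists hold 37590 and 41062 H3K27ac regions in the control replicates and 36000 and 32161 in the 4-OHT replicates, and give no read count or score, so depth is unknown. FLAG replicate 3 lists 192 regions against 8021 and 8257 in the others, and H3K27me3 replicate 1 lists more and narrower regions than replicates 2 and 3 in both conditions. The deletion itself cannot be checked from region lists. The study found Brg1 protein almost lost in treated ES cells by Western blot and *Brg1* RNA strongly reduced in deleted cultures. It allows that residual Brg1 activity might remain during mesoderm induction. Acetylation within 2.5 kb of a *Smarca4* TSS covered 2875 and 2450 bp in the control versus 3250 and 3375 bp in the 4-OHT replicates. Of 10 mesoderm markers 9 carried a promoter H3K27ac region in both control replicates, *Kdr* being the exception, against 2 of 4 endoderm markers (*Cxcr4* and *Cer1*), 2 of 4 pluripotency markers (*Pou5f1* and *Nanog*), 0 of 4 neural markers (*Sox1* was not found in the annotation) and 0 of 4 blood and endothelial markers. In both 4-OHT replicates a region was carried by 9 of 10 mesoderm, 0 of 4 endoderm, 3 of 4 pluripotency, 0 of 4 neural and 0 of 4 blood and endothelial markers. Of the endoderm markers, *Cer1* had a region in 4-OHT replicate 2 and none in replicate 1. *Cxcr4*, which the study also places in mesoderm, is a gene of lost regions, which were chosen for lacking 4-OHT overlap. The part of these markers' cells in the losses was not tested.

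Lost regions were 6.04% of promoter regions. With the 2 conditions exchanged, the same rule took 741 of 13156 promoter regions of both 4-OHT replicates, or 5.63%. The lost regions were narrow, with a median width of 400 bp (quartiles 250 and 700, range 25 to 3625) against 1075 bp (550 and 1800) for kept regions. The enriched stretch covered a median of 200 bp in control replicate 1 (25 to 2600) and 375 bp in control replicate 2 (25 to 3625). It was shorter in replicate 1 than in replicate 2 at 663 of 811 lost regions (81.8%) and at 40.5% of kept regions, and 91 lost regions (11.2%) had the smallest unit of the lists, 25 bp, in at least 1 control replicate, against 1.29% of kept regions. At least 500 bp were enriched in each control replicate at 118 lost regions (14.5%; 95% exact binomial confidence interval 12.2 to 17.2%, which like all such intervals here covers counting error only) and at 68.4% of kept regions.

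The members nearest to the distance limit included regions 2497 bp (*Parp16*) and 2481 bp (*Gm14965*) from a TSS, and the nearest regions left out for distance lay at 2508 bp (*Snrnp48*), 2509 bp (*Lcn2*) and 2515 bp (*Sdccag8*). On the side of overlap, 68 kept regions had only 25 bp covered over both 4-OHT replicates, among them a 2275 bp region at *Clcn2*, and 498 kept regions were called in 1 of the 2 4-OHT replicates, 225 in replicate 1 and 273 in replicate 2. The nearest 4-OHT region lay a median of 6650 bp from a lost region (quartiles 1175 and 26738 bp). It lay within 500 bp at 126 members (15.5%) and beyond 10 kb at 346 (42.7%).

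Lost regions lay beside start sites rather than on them. A TSS fell inside 107 of 811 (13.2%; 95% CI 10.9 to 15.7%) against 63.9% of kept regions, and 345 (42.5%) lay over 1 kb from the TSS against 9.0%. By distance, 1.31% of the 8164 control regions that held a TSS were lost, 7.09% of those 1 to 500 bp away, and 20.5 to 26.7% of those in each 500 bp step from 501 to 2500 bp, close to the 23.4% of distal regions 2501 to 5000 bp away. Width also differed, from a median of 1425 bp for regions holding a TSS to 450 bp at 1 to 500 bp. It was 500 to 650 bp in the steps from 501 to 2500 bp, so beyond the TSS it did not fall as the lost share rose. In each width group the lost share was lower with a TSS inside than without, by an amount that differed between groups. It was 14.5% against 23.1% up to 250 bp and 3.04% against 14.2% over 250 and up to 500 bp. Over 500 and up to 1000 bp it was 1.77% against 10.3%. Among regions over 1000 and up to 2000 bp wide 0.983% of the 3458 with a TSS inside were lost against 10.3% of the 764 without. Beyond 2000 bp the shares were 0.271% and 2.03%. Of the lost regions 368 lay upstream and 336 downstream of the nearest TSS, and their centres fell in introns at 434 (53.5%), between genes at 263 (32.4%) and in exons at 114 (14.1%).

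**Figure D1:**
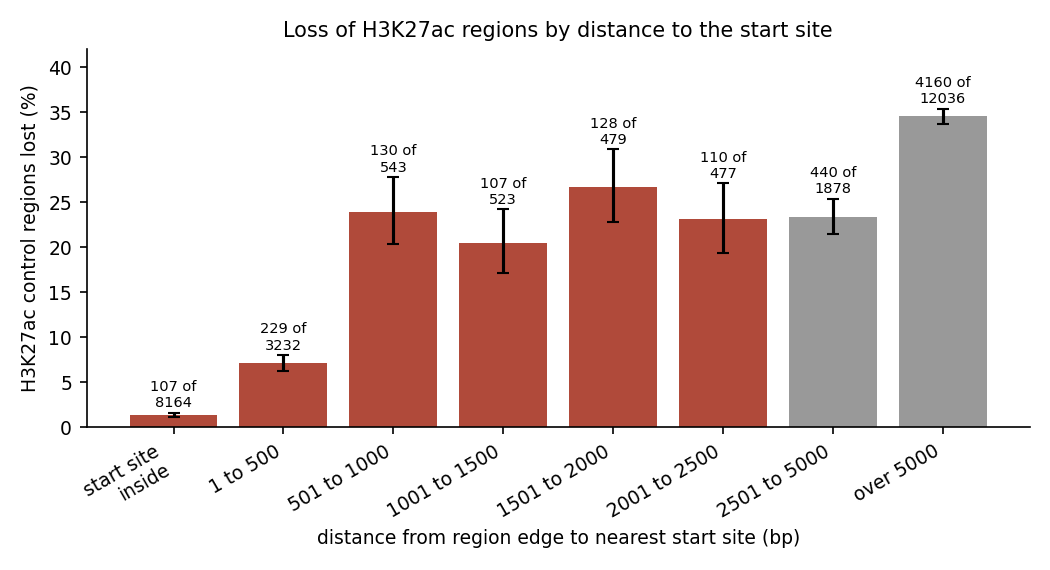
Share of H3K27ac control regions lost (y axis, percent, from 0) by the distance in bp from region edge to nearest TSS (x axis), with 95% exact binomial intervals as error bars and counts above the bars. Red bars are the promoter regions described here and grey bars the distal regions; the share is 1.31% with a TSS inside and 23.9% at 501 to 1000 bp.

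The TSS nearest to a lost region belonged to a protein-coding gene at 641 of 811 (79.0%) against 92.9% of kept regions. Small RNA genes of high copy number (U2, U6, U7, 7SK, 5S rRNA and snoRNAs) were nearest at 47 lost regions (5.80%), against 1.10% of all promoter regions, and 156 lost regions (19.2%) had no protein-coding TSS within 2.5 kb. Several of these gene names are shared by many near-identical copies, so a match says only that an annotated copy is close. By gene type, 24.2% of 120 promoter regions nearest to pseudogenes were lost, 23.9% of 92 at snRNAs, 17.3% of 104 at miRNAs, 18.3% of 278 at processed transcripts and 5.19% of 12357 at protein-coding genes.

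A lost region lay within 2.5 kb of a TSS of 600 protein-coding genes, of which 393 had a 4-OHT H3K27ac region within 2.5 kb of some TSS, not always the same one, and 207 had none. Over all 10598 protein-coding genes with a promoter control region, 213 (2.01%) had none. The 207 are among these 213, so the higher share at genes with a lost region follows from the rule and is description only. A 4-OHT region lay within 2.5 kb of the nearest TSS at 279 of 811 lost regions (34.4%; 95% CI 31.1 to 37.8%), and that TSS lay itself inside a 4-OHT region at 105 lost regions (12.9%). By nearest TSS, 713 genes had at least 1 lost region, 90 had 2 or more and 8 had 3. Those 8 were *Wnt2b*, *Vangl1* (planar cell polarity), *L1cam* (neural cell adhesion), *Odz2* (a teneurin), *Dcp1b* (mRNA decapping), *Slc11a1* (a metal ion transporter), *Vwa5b1* and *Mtap7d1*; no 4-OHT region remained at *Wnt2b*, *Slc11a1* and *Vwa5b1*.

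The 12 widest members ranged from 2050 to 3625 bp. The *Gna14* region (chr19:16511226-16514850, in an intron 1069 bp downstream of the TSS) covered 1450 bp in control replicate 1 and 3625 bp in replicate 2. *Pdgfrb*, the receptor for PDGF-BB on mesenchymal cells, had a region over its TSS of 2000 and 3125 bp. The gene's promoter windows held no 4-OHT region, as was the case at *Gna14* and *Mogat2*. *Igfbp2*, a binding protein for insulin-like growth factors, had 2600 and 2325 bp in an intron 405 bp downstream of the TSS (chr1:72872301-72874950), with 3121 and 2646 bp acetylated over its promoter in control against 450 and 425 bp after 4-OHT. The 2 conditions did not overlap there. Such promoter windows hold part or all of the lost region, so higher control values are favoured by the choice of members. *Rftn1* (raftlin, a lipid raft protein), *Dcp1b*, *Xylt1* (xylosyltransferase that starts proteoglycan chains), *Ifitm1* (interferon-induced membrane protein), *Frmd4b*, *Pip4k2a* (a phosphoinositide kinase) and *Slc38a4* (amino acid transporter) were also among them, and at each of these 7 a 4-OHT region lay within 2.5 kb of some TSS of the gene in at least 1 replicate. At *Slc38a4* the 4-OHT values of 825 and 150 bp stood against 1209 and 1284 bp in control.

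Among 11 lists of signalling and lineage genes, 45 of 387 promoter regions were lost (11.6%; 95% CI 8.61 to 15.2%), against 6.04% of all promoter regions. The share was 22.8% (13 of 57; 12.7 to 35.8%) for chemokine receptors, ephrins, semaphorins and plexins and 20.8% (10 of 48; 10.5 to 35.0%) for the Wnt pathway. It was 13.8% (4 of 29) for the Notch pathway, 14.3% (4 of 28) for cardiovascular transcription factors, 9.86% (7 of 71) for BMP, Nodal and TGF-beta genes, 9.09% (2 of 22) for receptor tyrosine kinases, 6.67% (2 of 30) for the FGF pathway and 1.59% (1 of 63, at *Smarca2*, the other BAF ATPase) for BAF and Polycomb subunits. No region was lost among the 17 of mesoderm and primitive streak factors or the 18 of pluripotency factors, with upper 95% limits of 19.5 and 18.5%. Of these intervals, those of guidance, Wnt and the pooled set lie above 6.04% and the others include it. They treat regions as independent, although the 13 guidance regions lay at 10 genes and the 10 Wnt regions at 7. Neither the number of lists nor the distance to the TSS was allowed for, so the difference from 6.04% was not tested.

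**Figure D2:**
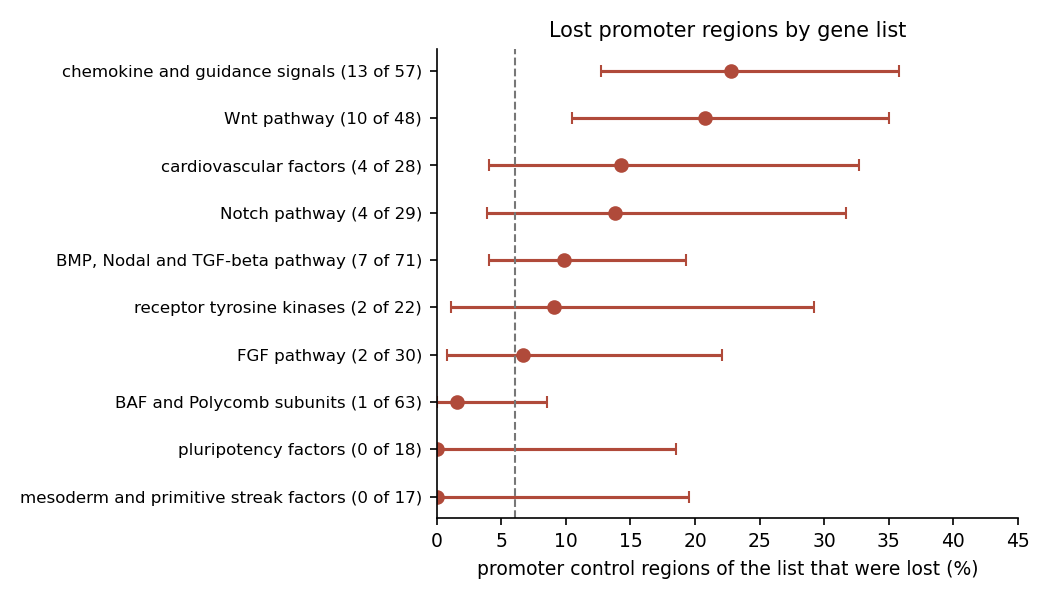
Share of promoter control regions lost in the gene lists described (x axis, percent), with 95% exact binomial intervals; counts of lost and of all regions stand beside each name. The dashed line is the share over all promoter regions, 6.04%, which lies below the intervals of guidance signals and the Wnt pathway.

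Among these lists, that of chemokine and guidance signals, with its receptors and ligands, held the most lost regions. *Cxcr4* had 2 lost regions, chr1:130488076-130488675 in an intron and chr1:130489001-130489900 upstream, and its promoter windows were acetylated over 875 and 1500 bp in the control replicates versus 0 and 0 bp in the 4-OHT replicates. *Cxcr7*, which also binds CXCL12, had 325 and 325 bp in control versus 500 and 75 bp after 4-OHT, with the 2 conditions overlapping. Among ephrin receptors, *Epha4* had 150 and 425 bp in control, *Epha6* 25 and 125 bp, and both had none after 4-OHT, while *Epha1* had 1409 and 1384 bp against 350 and 600 bp. *Efnb2*, the ephrin ligand of arterial endothelium and somites, had 2500 and 2575 bp against 1625 and 1750 bp. The control values of *Epha1* and *Efnb2* all lay above the 4-OHT values, an order that the choice of members favours. *Sema6c* had 1400 and 1700 bp and none after 4-OHT. Of the semaphorin receptors, *Plxnd1*, a vascular guidance receptor, had 1100 and 3473 bp against 125 and 225 bp, while *Plxna2* had 700 and 1290 bp against 0 and 425 bp and *Plxnb2* 4863 and 5288 bp against 4463 and 4238 bp.

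The Wnt list held 5 ligands, 1 receptor and 1 antagonist. *Wnt2b* had 775 and 2125 bp of promoter acetylation in the control replicates, *Wnt2*, a ligand of heart and lung mesoderm, 750 and 1550 bp, and *Apcdd1*, an inhibitor at the cell surface, 150 and 150 bp. No 4-OHT region lay in the windows of these 3 genes. *Wnt5a*, a ligand of non-canonical signalling, had 2725 and 3625 bp in control versus 2500 and 2975 bp after 4-OHT. The values of *Wnt3*, needed for the primitive streak, were 2937 and 4626 bp against 3012 and 2912 bp. Its lost region was a 1725 bp stretch 2012 bp downstream of the TSS (chr11:103637476-103639200). *Wnt8a* had 425 and 950 bp against 825 and 1100 bp, and the receptor *Fzd1* 750 and 850 bp against 650 and 525 bp. At *Wnt5a*, *Wnt3* and *Wnt8a* the 2 conditions overlapped.

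In the Notch list, *Lfng* had 150 and 700 bp in control and *Mfng*, a related glycosyltransferase, 250 and 275 bp, with none after 4-OHT at either. The ligand *Dll1* had 725 and 1675 bp against 400 and 500 bp, and *Nrarp*, a feedback target of Notch, 2325 and 2023 bp against 2000 and 1675 bp. The 4 cardiovascular factors were 3 ETS factors and *Prdm1*. *Etv2*, which specifies blood and endothelium, had 2408 and 3683 bp in control versus 233 and 1033 bp after 4-OHT. *Fli1* had 175 and 400 bp in control and none after 4-OHT, and *Ets1* had 700 and 1475 bp against 875 and 150 bp. Of the BMP, Nodal and TGF-beta genes, *Tgfb1* had 1925 and 2450 bp against 850 and 925 bp, *Acvr1*, a type I receptor, 1525 and 2450 bp against 1125 and 1600 bp, the Nodal antagonist *Lefty2* 762 and 937 bp against 487 and 562 bp, and the inhibitory Smad gene *Smad7* 4800 and 6225 bp against 5175 and 5575 bp. *Gdf5*, a joint morphogen, had 450 and 375 bp against 200 and 250 bp. *Pdgfrb* and *Fgfr1* were the receptor tyrosine kinases, and *Etv4* (2550 and 2925 bp against 1500 and 1150 bp) and *Fgf5* (600 and 125 bp against 150 and 0 bp) the FGF pathway genes. At *Tgfb1*, *Lefty2*, *Gdf5*, *Etv4*, *Dll1*, *Nrarp* and *Etv2* both control values lay above both 4-OHT values. At *Ets1*, *Acvr1*, *Smad7* and *Fgf5* the conditions overlapped. Since the windows hold the lost regions, higher control values follow in part from the choice of members and are description only.

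**Figure D3:**
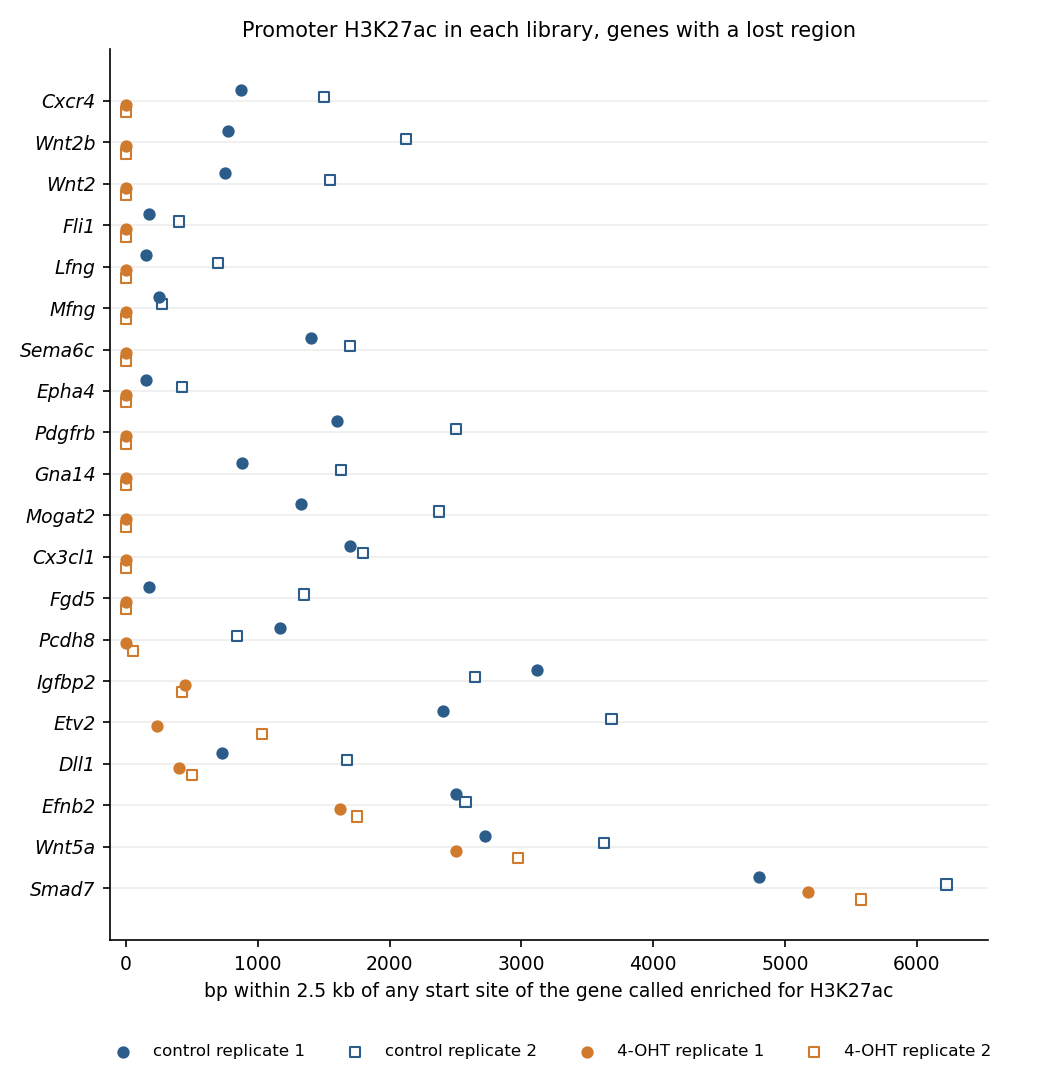
Base pairs within 2.5 kb of any TSS of a gene called enriched for H3K27ac (x axis), for 20 genes with a lost region that the text names; blue symbols are the 2 control and orange symbols the 2 4-OHT replicates. From *Cxcr4* down to *Fgd5* both 4-OHT values are 0, whereas at *Wnt5a* and *Smad7* the conditions overlap. The windows hold part or all of the lost regions, so higher control values are favoured by the choice of members.

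By family, 23 of 223 promoter regions of solute carriers were lost (10.3%; 95% CI 6.65 to 15.1%), spread over 17 genes that include *Slc38a4*, *Slc22a23* and *Slc11a1*. Families with 4 or 5 lost regions were collagens (4 of 14; *Col4a2*, *Col23a1*, *Col24a1* and *Col25a1*), genes named Adam or Adamts (4 of 17), potassium channels (4 of 20), G protein alpha and gamma subunits with Rgs proteins (5 of 24) and ETS factors (4 of 26). The Adam and Adamts regions lay at *Adam5*, *Adamts10* and, with 2 regions, the Adamts-like gene *Adamtsl2*. Integrins had 3 of 19 (*Itga1*, *Itga5* and *Itga6*), and cadherins with protocadherins 3 of 19. Zinc finger genes named *Zfp* had 7 of 313 (2.24%; 0.904 to 4.55%), ribosomal protein genes 1 of 109 (*Rpl38*), proteasome subunits 1 of 54 (*Psmb4*) and translation initiation factors 0 of 67, which allows up to 5.36%. No region was lost among 18 of Klf, 8 of Sox, 7 of laminin and 4 of Tbx genes. The intervals of collagens (8.39 to 58.1%), potassium channels (5.73 to 43.7%) and the ETS family (4.36 to 34.9%) are wide at these counts. Over all promoter regions the lost share was 6.04%. The intervals of potassium channels, ETS factors, integrins and cadherins (3.38 to 39.6% for each of the last 2) include that share. The miRNA genes had 6 of 68 (3.31 to 18.2%, which also includes 6.04%), among them *Mir29a* and *Mir29b-1*, which lie close together on chromosome 6.

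In CG ratio the lost regions resembled distal regions more than the kept promoter regions. The median CG observed/expected ratio in the central 500 bp was 0.23 (quartiles 0.15 and 0.36) for lost regions, 0.67 (0.40 and 0.85) for kept promoter regions, 0.19 for lost distal and 0.20 for kept distal regions. A ratio of at least 0.6 was found at 57 lost regions (7.03%) and at 58.0% of kept regions. Regions with a TSS inside had a median of 0.28 for 107 lost and 0.76 for 8057 kept regions, and regions without one had a median of 0.22 for 704 lost and 0.44 for 4550 kept regions. Median GC content was 50.6% for lost, 58.4% for kept, 47.2% for lost distal and 47.6% for kept distal regions. Among promoter regions without a TSS inside it was 50.1% for lost and 52.0% for kept, so that in GC content these lost regions were nearer to the kept promoter regions than to the distal ones.

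**Figure D4:**
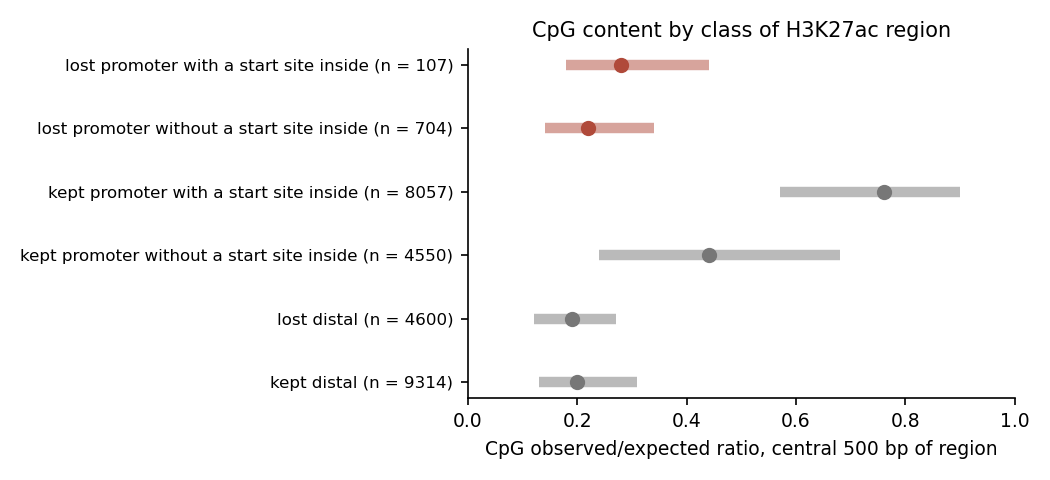
CG observed/expected ratio in the central 500 bp (x axis) for 6 classes of H3K27ac region, with the median as a point and the quartiles as a bar. The quartiles of both classes of lost promoter regions lie between 0.14 and 0.44, beside the distal classes and below kept promoter regions with a TSS inside (quartiles 0.57 and 0.90).

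Short motifs were searched on both strands in the same 500 bp, as exact letters with N for any base; no motif is contained in another. GGGCGG (Sp and Klf factors) occurred in 180 lost regions (22.2%; 95% CI 19.4 to 25.2%) against 54.7% of all promoter regions, CCGGAAG (ETS) in 3.33% against 15.0%, and CGCATGCG (NRF1) in 0.370% against 2.04%. A CG is part of each of these 3 motifs. The GATA motif AGATAA occurred in 177 lost regions (21.8%; 19.0 to 24.8%) against 13.1% of all promoter regions and 27.4% of lost distal regions, AGGTGTGA (T-box) in 3.70% against 1.64% and 3.17%, and CTTTGA (Tcf/Lef) in 29.7% against 21.4% and 35.8%. CAGACA (Smad) was found in 39.5% against 29.3%, GGAATG (TEAD) in 25.9% against 19.6%, TATAAA in 18.2% against 11.7%, TGANTCA (AP-1) in 13.3% against 9.90% and TGTTTAC (Fox) in 6.17% against 4.71%. In kept promoter regions without a TSS inside, GGGCGG occurred in 37.4%, AGATAA in 17.6% and TGANTCA in 13.1%. There CAGACA occurred in 34.4%, CTTTGA in 26.2%, GGAATG in 21.5%, TATAAA in 16.7% and TGTTTAC in 5.71%. The shares of CCGGAAG, AGGTGTGA and CGCATGCG in these kept regions were 7.34%, 2.24% and 0.879%. A match is a run of letters and not a bound site.

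A promoter region was called Brg1-bound when regions of at least 2 of 3 FLAG replicates overlapped it, at the same or at different positions. This held for 48 lost regions (5.92%; 95% CI 4.40 to 7.77%), close to the 5.19% of all promoter regions and the 5.15% of kept regions. A FLAG site at which the regions of at least 2 replicates shared 1 bp lay in 36 lost regions (4.44%; 3.13 to 6.09%) and 3.22% of kept regions, or 1.09% with kept regions weighted to the widths of the lost ones. By replicate, FLAG regions overlapped 99, 101 and 0 lost regions, or 12.2, 12.5 and 0%, against 11.8, 10.5 and 0.341% of kept regions. The differences of 0.42, 1.94 and -0.34 percentage points (mean 0.67 ± 1.16, SD, n = 3) gave p = 0.500 in an exact two-sided sign permutation test, whose smallest p with 3 replicates is 0.25. Wide regions have more room for an overlap, and when kept regions were weighted to the widths of the lost ones their Brg1-bound share was 1.63%, and 2.69% for kept regions without a TSS inside. The differences by replicate were then 7.12, 8.06 and -0.09 points (mean 5.03 ± 4.46, SD; p = 0.500, same exact test, n = 3). Of the 118 lost regions with 500 bp in each control replicate, 18 were Brg1-bound (15.3%; 9.30 to 23.0%) against 7.23% of 8621 kept regions of that kind, and 11 held a shared FLAG site (9.32%; 4.75 to 16.1%) against 4.45%. With 1 control replicate left out of the choice of regions, the unweighted mean difference was -2.49 points without replicate 1 and -2.71 points without replicate 2, and the width-weighted one 2.04 and 2.01 points.

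The widest Brg1-bound members lay at *Mogat2* (2375 bp, with FLAG over 175 and 300 bp in replicates 1 and 2), the muscle gene *Igfn1* (450 and 325 bp), the noncoding *Gm14272* (150 and 200 bp) and *Mkl1*, a coactivator of serum response factor (25 and 150 bp). They continued with *Gm4766*, *Cx3cl1* (the chemokine fractalkine), *Lphn3* (an adhesion receptor), *Pcdh8* (a protocadherin of paraxial mesoderm), *Gm13497*, *Igfbpl1*, *Slc22a23* and a 5S rRNA copy. FLAG covered 100 and 425 bp at *Cx3cl1*, 275 and 400 bp at *Lphn3* and 150 and 175 bp at *Pcdh8*, and 0 bp in replicate 3 at every member. Of the 12, *Mkl1*, *Pcdh8* and *Slc22a23* belong to genes that still had a 4-OHT H3K27ac region; at *Pcdh8* this was 0 and 50 bp against 1169 and 844 bp in control. *Lfng* and 1 of the 3 *Wnt2b* regions (chr3:104765301-104766125) were Brg1-bound as well. A shared FLAG site lay inside or within 10 kb of 12.3% of lost regions (10.1 to 14.8%) and 7.13% of kept regions.

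H3K27me3 was rare at lost regions, and its mean was higher after 4-OHT at lost and lower at kept regions, with the replicates of the 2 conditions overlapping in both classes. It overlapped 4, 9 and 12 lost regions in control replicates 1, 2 and 3 and 5, 19 and 17 in the 4-OHT replicates, or 1.03% ± 0.498 against 1.69% ± 0.934 (SD, n = 3). The difference of 0.66 points had p = 0.300 in an exact two-sided permutation test of 3 against 3 libraries, which cannot go below 0.1. Kept regions had 0.822% ± 0.251 in control and 0.584% ± 0.274 after 4-OHT. All 3 same-numbered pairs were higher after 4-OHT at lost regions and all 3 lower at kept regions. The change at lost minus that at kept regions was 0.90 points (p = 0.200, same exact test, n = 3; p = 0.250 with the replicate number as a block, the smallest p that 3 pairs allow). The change at lost regions alone was -0.02 points when control H3K27ac replicate 2 was left out of the choice of regions. In the 118 members with 500 bp in each control replicate it was 2.26 points, and 2.45 points as the change at lost minus kept regions, each with p = 0.100 (same exact test, n = 3), the smallest that 3 against 3 libraries allow.

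Suz12 overlapped 2 and 3 lost regions in the control and 12 and 22 in the 4-OHT replicates, or 0.308% ± 0.0872 against 2.10% ± 0.872 (SD, n = 2), and the 2 conditions did not overlap. The exact permutation p was 0.33, the smallest that 2 against 2 libraries allow. Kept regions also had more, 1.16% ± 0.466 after 4-OHT against 0.547% ± 0.0112 in control. Genome-wide the Suz12 lists were also longer after 4-OHT, with 3654 and 4016 regions against 2951 and 2913 in control. The ratio of 4-OHT to control was 6.80 at lost regions, on a control base of only 2 and 3 regions, and 2.12 at kept regions. The change was larger at lost regions by 1.17 points (p = 0.33, same exact test, n = 2). In the 118 members with 500 bp in each control replicate this difference was -0.17 points.

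Suz12 in both 4-OHT replicates and neither control replicate was found at 9 lost regions (1.11%; 95% CI 0.509 to 2.10%), against 0.365% of all promoter regions. H3K27me3 in at least 2 of 3 replicates was found at 10 lost regions in control (1.23%; all promoter regions 0.865%) and at 17 after 4-OHT (2.10%; 1.23 to 3.34%; all promoter regions 0.648%), and the 10 were among the 17. The 7 added after 4-OHT lay at *Fli1*, *Lmo1* (a LIM-only transcriptional partner), *Pcdh8*, *Pdlim4*, *Wnt2* and *Wnt2b*, which had 2. By these rules and that of Suz12 in both replicates, 21 lost regions carried a Polycomb mark in at least 1 condition. Their median CG observed/expected ratio over the whole region was 0.61, against 0.23 for the other 790 lost regions.

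At the downstream *Cxcr4* region, H3K27me3 covered 0, 350 and 225 bp in control versus 0, 25 and 175 bp after 4-OHT, while Suz12 covered 0 and 25 bp in control versus 275 and 375 bp after 4-OHT. At *Lfng*, control H3K27me3 of 0, 100 and 75 bp stood against 0, 300 and 375 bp, and Suz12 over 0 and 0 bp against 200 and 175 bp. The *Wnt5a* region at chr14:29322351-29322875 had 50, 175 and 225 bp of H3K27me3 in control against 0, 300 and 525 bp, and Suz12 over 0 and 0 bp against 50 and 525 bp. *Gad1*, which makes the transmitter GABA, had 0, 450 and 450 bp of H3K27me3 against 0, 325 and 300 bp, and Suz12 over 0 and 25 bp against 0 and 125 bp. At *Cxcr4*, *Lfng* and *Wnt5a* both Suz12 values after 4-OHT lay above both control values, at *Gad1* they overlapped, and the H3K27me3 values of the conditions overlapped at all 4. The regions shown here come from those counted as Polycomb-marked, partly by Suz12 in both replicates of a condition. *Cxcr4*, *Lfng* and *Wnt5a* met that rule after 4-OHT, so the order of their Suz12 values is favoured by the choice and is description only. *Fgd5*, a Brg1-bound member and endothelial guanine exchange factor, had Suz12 over 225 and 275 bp after 4-OHT, 0 bp in control, and no H3K27me3 within the region in any library. It counted as Polycomb-marked through Suz12 after 4-OHT alone, so these Suz12 values are description as well. In the promoter windows of *Fgd5* H3K27me3 was at 0 bp in all 3 control libraries, against 0, 125 and 100 bp after 4-OHT.

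**Figure D5:**
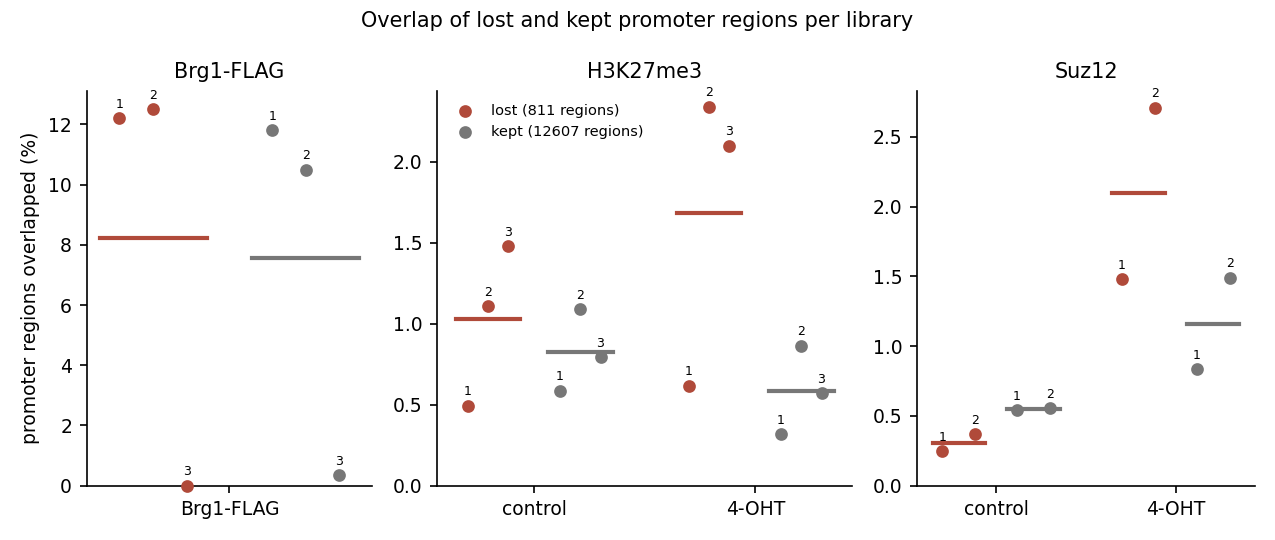
Share of lost (red, 811) and kept (grey, 12607) promoter regions overlapped by FLAG, H3K27me3 and Suz12 regions in each library (y axis, percent, a scale per panel); points are replicates with their numbers and lines are means. Suz12 is at 0.247 and 0.370% of lost regions in control and 1.48 and 2.71% after 4-OHT, and FLAG replicate 3 is at 0% for lost regions.

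A lost distal region lay within 10 kb of 106 lost promoter regions (13.1%; 95% CI 10.8 to 15.6%) and of 4.62% of kept ones, and within 50 kb of 31.3% and 18.6%. Kept distal regions lay within 10 kb of 17.1% of lost and 17.6% of kept promoter regions. These shares come from the same H3K27ac libraries as the choice of members and are given as a description. By chromosome the lost share ranged from 3.81% on chromosome 12 (18 of 473) to 9.22% on chromosome 6 (59 of 640), leaving aside the 2 promoter regions of chromosome Y.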

How the data were processed

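The authors deposited 17 lists of enriched regions, 1 per replicate, each found by enrichment over input under a Poisson model with a p-value threshold of 1e-06 for FLAG and 1e-12 for the other marks; for FLAG the labels also give a fold cutoff of 2 over input. The submitters' processing notes name Bowtie and mm9. Each deposited list holds chromosome, start and end, on a 25 bp grid, with no score, count or p-value, so depth is unknown and overlap in bp is the only unit. The 11 inputs were not used here. Results for a few genes and for 1 gene list are not reported here.

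Members and gene lists were chosen with earlier results of these data known. GENCODE annotation of mm9 gave 86842 TSSs of 37273 genes. Overlap meant 1 bp. A region was assigned to the gene of its nearest TSS, with protein-coding genes first among ties. Named genes were the 12 widest lost regions, the 12 widest that were Brg1-bound, members in the lists, the 10 widest with Polycomb marks, genes with 2 or more lost regions and up to 4 per family; *Pdlim4* and the genes at the thresholds were added after their values were seen. Weighting to width used 10 groups. Tests were exact permutations over libraries, regions not being replicates. Replicate numbers paired the H3K27me3 samples, since deviations of same-numbered libraries from their condition means correlated at 0.932, 0.875 and 0.796 over 19499 merged regions; the labels do not say what a number shares. Alternatives covered overlap, gap, TSS distance, annotation, region width, replicates, windows and the choice of kept regions. The steps were tested on simulated data. Python 3.11.15, NumPy 2.4.6, pandas 2.3.3, SciPy 1.17.1 and Matplotlib 3.10.9 were used.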

Additional observations from a re-analysis of the deposited data

How the results depend on the processing

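The lists hold regions and no signal, so a region that dropped just below the calling threshold and one without any signal are both lost, and depth cannot be weighed. Of 156 alternative values, 107 stayed within the set limits or, for tested differences, kept their sign. Another 42 moved beyond the limits and 7 turned in direction. Tested differences had no limit on size, and the smallest possible p-values were too large for their calls to change. The FLAG difference of 0.67 points thus counted as unchanged at 7.08 points, with 500 bp enriched in each control replicate.

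The 811 lost regions (6.04% of promoter regions, median width 400 bp) became 1362 (10.2%, 525 bp) when 50% of a region had to be covered to count as kept, 466 (3.90%) within 1 kb and 1251 (8.18%) within 5 kb of a TSS. They became 118 (1.35%, 1312 bp) with 500 bp enriched in each control replicate and 3183 (17.3%, 150 bp) with regions of either control replicate. The share was 5.20% with protein-coding TSSs only and 5.11% when a 4-OHT region within 500 bp counted as kept. With 1 H3K27ac library left out, the number ranged from 1036 to 2570, the share from 7.72 to 15.3% and the median width from 125 to 400 bp. The highest number came without control replicate 1, and 1718 without control replicate 2. The 207 protein-coding genes without a 4-OHT region were 38 for the 118 wide regions, a setting chosen after seeing the data.

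The Brg1-bound share of 5.92% was 15.3% in the wide regions, 2.29% with either control replicate, 18.7% for any FLAG replicate, 0% for all 3 and 4.44% for sites shared by 2 replicates, a setting chosen after seeing the data. Leaving out 1 library gave 0 to 6.00%, and 0% came without FLAG replicate 1 or 2, since replicate 3 overlapped no lost region. The lost minus kept difference in FLAG, 0.67 points, was -0.04 within 5 kb and -2.97 with either control replicate. It was -2.49 without control H3K27ac replicate 1, -2.71 without replicate 2 and -0.41 without 4-OHT replicate 1, a range over left-out libraries of -2.71 to 1.18 (2.01 to 2.04 when weighted to width as well, -2.71 to 2.04 in all).

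The H3K27me3 difference at lost regions, 0.66 points, ranged from -0.02 to 1.19 over left-out libraries, the lowest without control H3K27ac replicate 2, and was 2.26 in the wide regions (p = 0.100, exact permutation; 0.100 to 1.00 over its alternatives). With the replicate number as a block it stayed at 0.66 points (p = 0.250, exact permutation). The block for Suz12 gave 1.79 points (p = 0.500, exact permutation, the smallest for 2 pairs). With so few libraries no block could have changed a call. The change of Suz12 at lost minus kept regions was -0.17 points in the wide regions. Motif shares were lower in the central 300 bp, such as 13.3% for AGATAA, as the window was shorter.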
